A study of Mus musculus with 7 samples.

Results

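Mitotic gene expression was examined in whole mouse uterus, for 46 genes listed by name for their roles in mitosis: cyclins and kinases, spindle, kinetochore and cytokinesis proteins. The deposited table lists 24964 genes. Of the 46 names, 45 were found as written, and Foxm1b was found as Foxm1, of which RefSeq gives it as a synonym. All 46 had a mean of at least 1 FPKM (fragment counts divided by gene length and by library depth) over the 7 libraries, the level asked for before testing, and the lowest of these means was 1.55 FPKM. A group mean below 1 FPKM occurred in 8 members, each time in the libraries labelled Foxl2LsL.

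The 3 control libraries (replicates 1, 2 and 4) came from mice with the genotype Pgrcre/+, which carry Cre recombinase at 1 allele of the progesterone receptor gene. The other 4 libraries (replicates 1 to 4) are labelled Pgrcre/+Foxl2LsL/+, the same Cre allele together with a Foxl2LsL allele, and are called libraries labelled Foxl2LsL here. All 7 libraries are labelled as 12 weeks old and in diestrus, a phase of the estrous cycle. All carry the Cre allele, so no library without Cre was compared. The progesterone receptor gene is active in several uterine cell types, and whole tissue does not separate them. Foxl2 itself was at 11.1, 19.3 and 12.9 FPKM in controls 1, 2 and 4 and at 12.7, 14.3, 14.8 and 17.2 FPKM in libraries labelled Foxl2LsL 1 to 4. The groups overlapped (log2 fold change 0.06, SE 0.18; limma, adjusted p = 0.818), so the level of Foxl2 does not check the labels, and the directions that follow rest on the labels alone. Library depth, recovered from the values, was 47800000 to 67300000 fragments per library, and the member with the fewest fragments in any library, Cdc25c, had 20 there.

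Entry into mitosis is driven by CDK1 bound to cyclin A or cyclin B, held back by inhibitory kinases and released by CDC25 phosphatases. Kinetochores built on centromeres then attach chromosomes to spindle microtubules, the spindle checkpoint delays anaphase until all are attached, and the anaphase-promoting complex (APC/C) with CDC20 destroys cyclin B and securin so that chromosomes part and the cell divides. Most of these genes are transcribed late in the cell cycle and are nearly silent in resting cells, through the MuvB complex bound with pocket proteins or with B-MYB and FOXM1. In the uterus, epithelial and stromal cells divide in turn under estrogen and progesterone over each cycle.

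Late cell cycle promoters are known for a short element called CHR (cell cycle genes homology region), often downstream of CCAAT boxes bound by NF-Y. RefSeq promoter windows (GRCm38.p6, 250 bases before to 50 after the start site) were matched by symbol for 37 of the 46 members, as 39 windows, since Ect2 and Prc1 have 2 overlapping windows each. The stretches below are the 120 bases before the start site, 5′ to 3′, with matches in capitals: TTTGAA or its complement TTCAAA (CHR), TTTAAA (a CHR variant, its own complement), CCAAT or its complement ATTGG, and TTGGCGC or its complement GCGCCAA (an E2F-type site, whose TTGG can overlap a CCAAT box). The first 8 genes were much lower in the libraries labelled Foxl2LsL, and the last pair, Spc25 and Cdc25b, were not. These are examples, and each holds a match. Other members had no match in this stretch: Anln, Birc5, Mad2l1, Ndc80, Nuf2 and Nusap1, which also fell, and Pttg1, which did not.
Ccnb2, chr9:70421555-70421674, minus strand: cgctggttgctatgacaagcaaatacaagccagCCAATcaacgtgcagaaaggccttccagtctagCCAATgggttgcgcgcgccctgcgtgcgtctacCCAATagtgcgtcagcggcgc
Cdk1, chr10:69352913-69353032, minus strand: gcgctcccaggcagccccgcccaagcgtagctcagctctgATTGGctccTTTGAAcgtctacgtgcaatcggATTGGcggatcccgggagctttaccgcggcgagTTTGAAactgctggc
Top2a, chr11:99024190-99024309, minus strand: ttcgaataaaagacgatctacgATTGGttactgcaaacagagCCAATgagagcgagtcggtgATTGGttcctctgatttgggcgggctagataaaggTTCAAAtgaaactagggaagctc
Mki67, chr7:135716380-135716499, minus strand: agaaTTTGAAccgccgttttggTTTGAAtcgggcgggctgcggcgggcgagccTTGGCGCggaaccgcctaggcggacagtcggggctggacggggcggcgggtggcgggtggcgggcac
Plk1, chr7:122159315-122159434, plus strand: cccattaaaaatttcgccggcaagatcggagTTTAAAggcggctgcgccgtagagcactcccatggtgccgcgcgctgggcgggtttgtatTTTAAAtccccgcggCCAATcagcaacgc
Cdc20, chr4:118437344-118437463, minus strand: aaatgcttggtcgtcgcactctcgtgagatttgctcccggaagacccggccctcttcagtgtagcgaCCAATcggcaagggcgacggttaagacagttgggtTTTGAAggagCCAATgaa
Kif11, chr19:37376262-37376381, plus strand: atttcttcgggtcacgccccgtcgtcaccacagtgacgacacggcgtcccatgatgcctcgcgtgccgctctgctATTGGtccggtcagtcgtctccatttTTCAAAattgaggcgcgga
Espl1, chr15:102296173-102296292, plus strand: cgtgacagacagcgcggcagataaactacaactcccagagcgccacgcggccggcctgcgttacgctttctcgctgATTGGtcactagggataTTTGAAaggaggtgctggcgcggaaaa
Spc25, chr2:69206214-69206333, minus strand: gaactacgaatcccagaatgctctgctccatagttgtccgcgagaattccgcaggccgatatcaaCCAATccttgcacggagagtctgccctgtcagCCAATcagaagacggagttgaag
Cdc25b, chr2:131186828-131186947, plus strand: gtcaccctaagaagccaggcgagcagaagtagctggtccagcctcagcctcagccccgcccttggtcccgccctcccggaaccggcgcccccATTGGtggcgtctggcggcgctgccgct

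The CHR core TTTGAA was present in 29 of 39 member windows (74.4%), against 17.9% of all 32851 windows, and CCAAT in 31 (79.5%), against 37.4%. Both occurred together in 26 member windows (66.7%), against 7.0% of all windows. E2F-type sites on either strand were taken as the letters TTCCCGC, the letters TTGGCGC of the stretches above or the letters TTCGCGC. Any of these was in 7 member windows (17.9%), against 8.1% of all windows and 13.9% of the 13033 windows of other tested genes. This pooled share was near that of expressed genes, but the forms differed. TTGGCGC was in 6 member windows (15.4%), both Ect2 windows among them, against 4.0% of other tested windows. TTCCCGC was in 1 (2.6%), against 8.0%, and TTCGCGC in 1 (2.6%), against 2.9%. In those 13033 windows TTTGAA had a share of 11.8%, CCAAT of 37.3% and both together of 4.6%. The CHR core lay within 50 bases of the start site in 26 member windows (66.7%) and in 4.9% of all windows, and CCAAT lay in the 100 bases before it in 27 (69.2%) and in 19.3%. Spc25 held both, with CCAAT 55 and 23 bases before the start and TTTGAA from base 25 after it, while Cdc25b held CCAAT without either CHR form and Pttg1 held none of these letters. A match is only a match of letters in this window. Among the 27 genes with TTTGAA the median log2 fold change was -2.06, and among the 10 without it -1.63, a difference given as description.

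**Figure D1:**
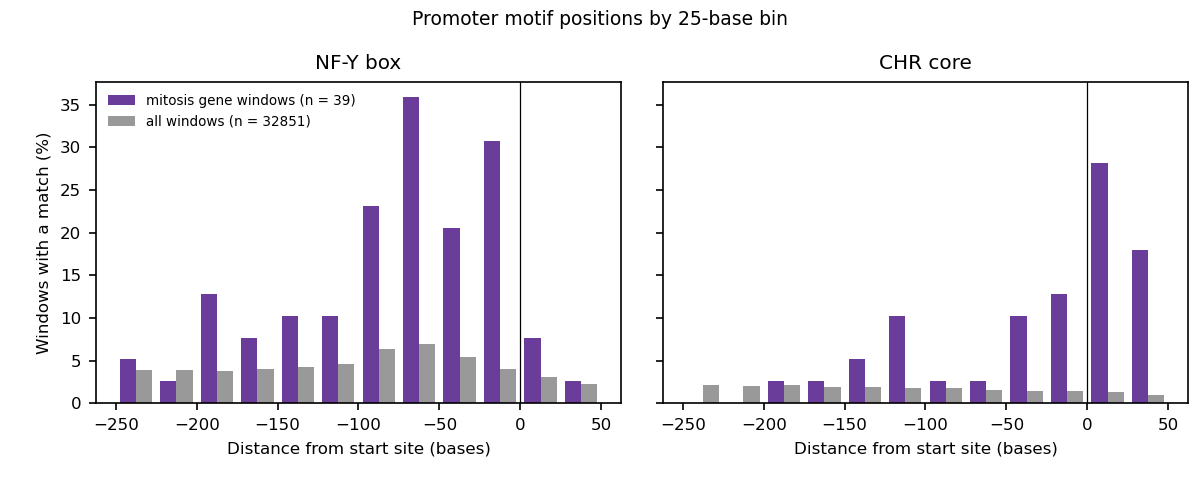
Share of promoter windows (%) with a motif starting in each 25-base bin, against distance from the RefSeq start site in bases, for the 39 windows of the mitosis genes (purple) and all 32851 windows (grey); the NF-Y box is CCAAT and the CHR core is TTTGAA, on either strand. In the mitosis genes the NF-Y box was most frequent before the start site, at 35.9% in the bin from 75 to 50 bases before it, and the CHR core just after it, at 28.21% in the first 25 bases.

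Of the 46 mitosis genes, 43 were lower in the libraries labelled Foxl2LsL, 0 were higher and 3 (Cdc25b, Spc25 and Pttg1) did not reach an adjusted p of 0.05 by limma, with Benjamini-Hochberg adjustment across the 13334 genes tested. Among all tested genes 23.9% were lower and 16.7% higher by the same rule. Cdc25b, Spc25 and Pttg1 did not reach an unadjusted p of 0.05 either (limma). The median log2 fold change of the members was -1.96, and that of all tested genes was -0.05. On the FPKM scale the control mean was 5.79 times that of the other group at the median member, and from 2.18 to 8.49 times among the 43 genes that fell. A called log2 fold change of -1.5 or below was reached by 38 members, against 1.87% of all tested genes. Fold changes are on the log2(FPKM + 1) scale, which understates changes at low levels.

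Summed over the 46 members, the level was 980.1, 791.3 and 422.4 FPKM in controls 1, 2 and 4. It was 246.6, 133.7, 182.9 and 170.1 FPKM in libraries labelled Foxl2LsL 1 to 4. Every control thus held more mitotic transcripts than every library of the other group, and control 4 was the closest. In 42 members the groups did not overlap, all lower in the libraries labelled Foxl2LsL, against 27.9% of all tested genes that were lower without overlap and 47.6% without overlap in either direction. In bulk tissue, fewer dividing cells and less of these transcripts per cell cannot be told apart. The labels do not say whether libraries came from separate animals, so the spread between them may be partly technical.

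**Figure D2:**
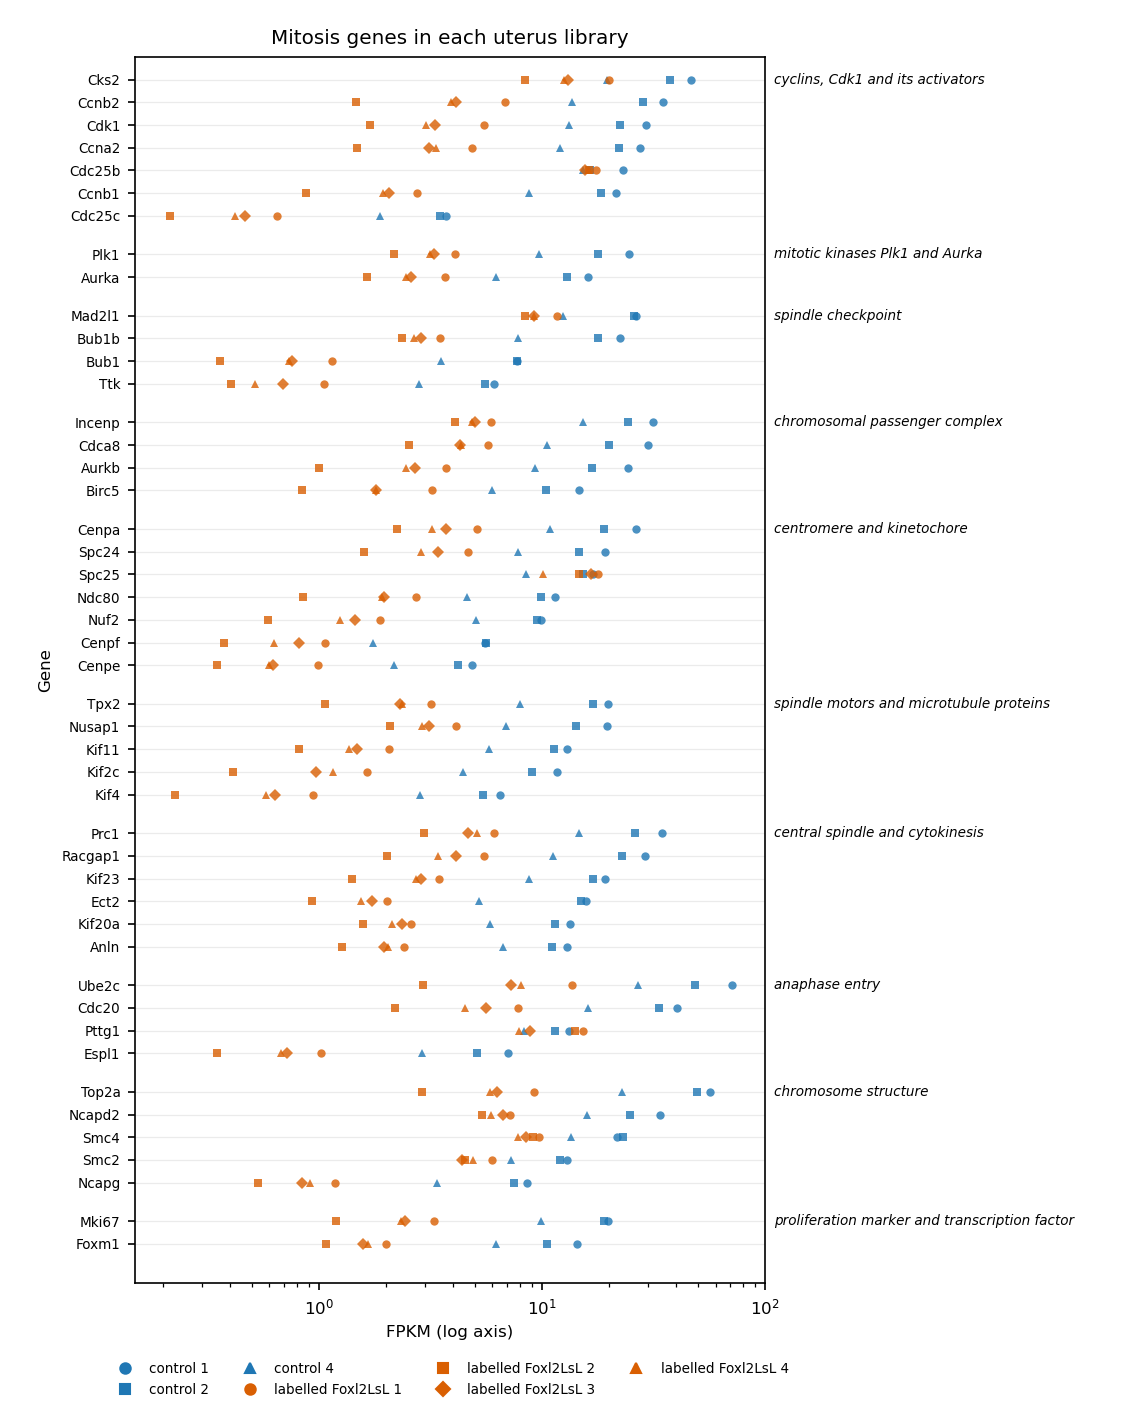
FPKM (log axis) of each of the 46 mitosis genes (rows, grouped by role) in each library; blue marks are the 3 controls, orange marks the 4 libraries labelled Foxl2LsL, and the shape gives the replicate number. In 42 rows every orange mark lies below every blue mark; the exceptions are Cks2, Cdc25b, Spc25 and Pttg1.

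Among cyclins, Cdk1 and its activators, 6 of 7 genes fell. Ccnb1, which encodes cyclin B1, the partner with which CDK1 starts mitosis (chromosome 13, 100778650 to 100786570, GRCm38), was at 21.4, 18.4 and 8.76 FPKM in controls 1, 2 and 4 and at 2.75, 0.877, 2.06 and 1.94 FPKM in libraries labelled Foxl2LsL 1 to 4. Its lowest control was 3.18 times its highest value in the other group. The log2 fold change was -2.52 (SE 0.33; limma, adjusted p = 0.00126), and the ratio of means, 8.49, was the highest of the members. Ccnb2, for cyclin B2, was at 35, 28.3 and 13.7 FPKM in controls and at 6.82, 1.47, 4.11 and 3.93 FPKM in the others (log2 fold change -2.41, SE 0.42; limma, adjusted p = 0.00392). Ccna2, for cyclin A2, which acts in S phase and early mitosis, was at 27.6, 22.1 and 12 FPKM in controls and at 4.86, 1.48, 3.13 and 3.34 FPKM in the others (-2.35, SE 0.34; limma, adjusted p = 0.00188). Cdk1, the kinase itself, was at 29.3, 22.3 and 13.2 FPKM and at 5.51, 1.69, 3.33 and 3.03 FPKM (-2.37, SE 0.33; limma, adjusted p = 0.0017). In all 4 of these genes the groups were apart and control 4 was the lowest control.

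The remaining activators moved unequally. Cdc25c, a phosphatase that activates CDK1, fell from a mean of 3.03 to 0.439 FPKM (log2 fold change -1.46). Its relative Cdc25b was at 23.1, 16.4 and 15.3 FPKM in controls and at 17.5, 16.2, 15.6 and 16.2 FPKM in libraries labelled Foxl2LsL 1 to 4. These values overlapped (-0.13, SE 0.13; limma, adjusted p = 0.473; two-sided exact permutation p = 0.686), and without control 1, the highest control, the value was 0.04. Cks2, a small CDK-binding subunit, was at 46.8, 37.4 and 19.5 FPKM in controls and at 19.9, 8.38, 13.1 and 12.6 FPKM in the others. Library labelled Foxl2LsL 1 lay above control 4, so of the 43 called genes Cks2 alone had overlapping groups, which is why it was named here after its values were seen (-1.27, SE 0.34; limma, adjusted p = 0.0209). Its call was lost without control 1, without control 2 or without library labelled Foxl2LsL 3, with adjusted p up to 0.0726 (limma).

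Plk1 and Aurka, the genes grouped here as mitotic kinases, both fell, while the kinase genes Aurkb, Bub1 and Ttk are counted in the groups below. Plk1, for polo-like kinase, which acts on centrosomes, kinetochores and cytokinesis, was at 24.5, 17.8 and 9.74 FPKM in controls and at 4.09, 2.17, 3.27 and 3.15 FPKM in the others (log2 fold change -2.07, SE 0.29; limma, adjusted p = 0.00159). Aurka, for the centrosomal Aurora A, was at 16.1, 13 and 6.2 FPKM and at 3.66, 1.65, 2.58 and 2.47 FPKM (-1.77, SE 0.31; limma, adjusted p = 0.0037). Neither overlapped between the groups.

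All 4 spindle checkpoint genes fell. Bub1b, which encodes BUBR1, an inhibitor of the APC/C, was at 22.5, 17.9 and 7.85 FPKM in controls and at 3.48, 2.36, 2.87 and 2.68 FPKM in the others (log2 fold change -2.04, SE 0.31; limma, adjusted p = 0.00209). Its partner kinase gene Bub1 and the checkpoint kinase gene Ttk fell by 2.02 and 1.77 on the log2 scale. Mad2l1, for MAD2, the subunit that captures CDC20, was at 26.4, 26 and 12.4 FPKM in controls and at 11.7, 8.39, 9.19 and 9.25 FPKM in the others. Its lowest control was only 1.05 times its highest value in the other group (-1.02, SE 0.25; limma, adjusted p = 0.0156). The call of Mad2l1 was lost without control 2 (limma, adjusted p = 0.0597).

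The chromosomal passenger complex, which corrects faulty attachments and guides cytokinesis, fell in all 4 of its genes by similar amounts. Aurkb, for its kinase Aurora B, was at 24.4, 16.8 and 9.3 FPKM in controls and at 3.7, 1.0, 2.7 and 2.47 FPKM in the others (log2 fold change -2.33, SE 0.36; limma, adjusted p = 0.00236). Birc5, for survivin, was at 14.6, 10.4 and 5.95 FPKM and at 3.21, 0.839, 1.8 and 1.8 FPKM (-1.94, SE 0.33; limma, adjusted p = 0.00353). The scaffold gene Incenp and Cdca8, for borealin, had log2 fold changes of -2.0 and -1.94. Incenp had the lowest adjusted p of the members, 0.000736 (limma).

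Of 7 centromere and kinetochore genes 6 fell. Cenpa, for the histone variant that marks centromeres, was at 26.4, 18.9 and 10.9 FPKM in controls and at 5.13, 2.25, 3.73 and 3.23 FPKM in the others (log2 fold change -2.06, SE 0.30; limma, adjusted p = 0.00196). Cenpe, for a kinetochore motor, and Cenpf, for an outer kinetochore protein, fell by 1.5 and 1.53 on the log2 scale. The NDC80 complex, which binds microtubules, is made of the products of Ndc80, Nuf2, Spc24 and Spc25. The first 3 fell, with log2 fold changes of -1.72, -1.99 and -1.82. Spc25 (chromosome 2, 69193895 to 69206194, GRCm38) was at 17, 15.3 and 8.45 FPKM in controls and at 17.9, 14.7, 16.6 and 10.1 FPKM in libraries labelled Foxl2LsL 1 to 4. The groups overlapped (0.14, SE 0.26; limma, adjusted p = 0.692; two-sided exact permutation p = 0.571), and the direction changed without control 4, to -0.15.

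The ratio of Spc25 to Spc24, partners in that complex, was 0.887, 1.05 and 1.08 in controls 1, 2 and 4. It was 3.82, 9.19, 4.84 and 3.5 in libraries labelled Foxl2LsL 1 to 4, without overlap. The means were 1.0 ± 0.103 (SD, n = 3) and 5.34 ± 2.63 (SD, n = 4), with a two-sided exact permutation p of 0.0571, the smallest that 3 against 4 libraries allow. Compared in the same way were Pttg1 to Espl1 (2.33 ± 0.498 and 19.8 ± 13.7) and Cdc25b to Cdc25c (6.35 ± 1.75 and 43.5 ± 21.9), with the same exact permutation p of 0.0571 each and 0.0571 after Benjamini-Hochberg adjustment over the 3. These 3 ratios were chosen after their values were seen, and the members that fell set most of each change. Their p values therefore add no evidence to those falls, and the adjustment covers only the pairs chosen.

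**Figure D3:**
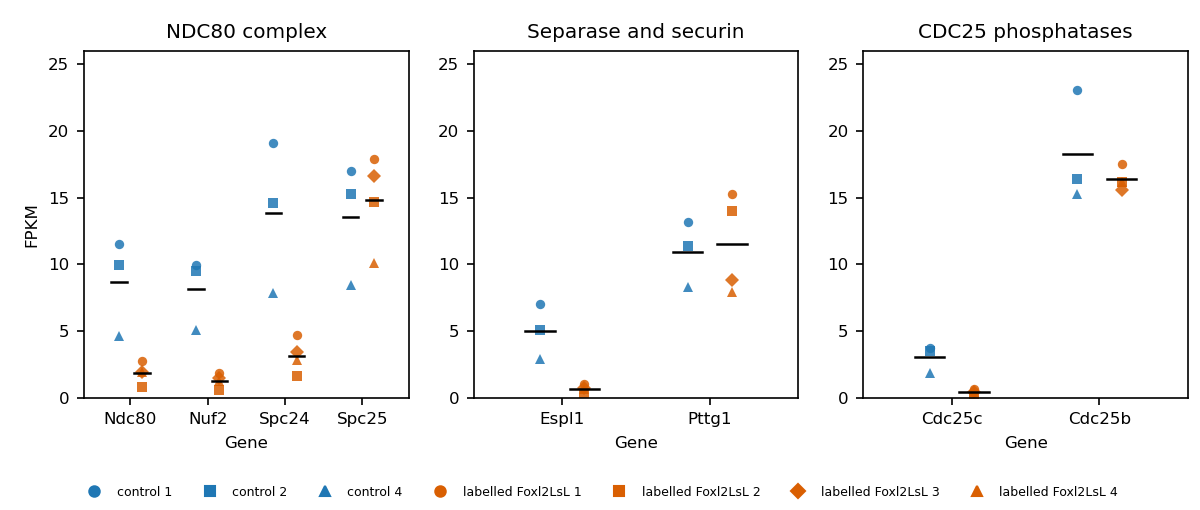
FPKM of the members of the NDC80 complex, of separase (Espl1) and securin (Pttg1), and of a pair of CDC25 phosphatases in each library; blue marks are controls, orange marks libraries labelled Foxl2LsL, shapes give replicate numbers and black lines group means. Spc25, Pttg1 and Cdc25b overlap between the groups, while each partner lies lower in all 4 libraries labelled Foxl2LsL.

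All 5 genes for spindle motors and microtubule proteins fell. Tpx2, for an activator of Aurora A that seeds spindle microtubules, was at 19.7, 17 and 8.0 FPKM in controls and at 3.18, 1.07, 2.32 and 2.35 FPKM in the others (log2 fold change -2.26, SE 0.33; limma, adjusted p = 0.00193). Nusap1, for a microtubule bundling protein, was at 19.6, 14.2 and 6.88 FPKM and at 4.1, 2.08, 3.13 and 2.89 FPKM (-1.76, SE 0.32; limma, adjusted p = 0.00425). On the log2(FPKM + 1) scale 3 kinesin genes lay between them. These were Kif11 (-2.14), whose motor pushes spindle poles apart, Kif2c (-2.15), for a microtubule depolymerase, and Kif4 (-1.86), for a chromosome-bound kinesin. By ratio of means, control over the other group, the order differed. Kif4 (8.3), Kif2c (8.04) and Kif11 (6.99) then lay above Tpx2 (6.67) and Nusap1 (4.45).

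All 6 central spindle and cytokinesis genes fell. Ect2, for the exchange factor that activates RhoA at the division furrow, was at 15.8, 14.9 and 5.21 FPKM in controls and at 2.03, 0.935, 1.73 and 1.55 FPKM in the others (log2 fold change -2.23, SE 0.35; limma, adjusted p = 0.00241). Kif20a, for a central spindle kinesin, was at 13.3, 11.5 and 5.86 FPKM and at 2.58, 1.57, 2.36 and 2.12 FPKM (-1.77, SE 0.25; limma, adjusted p = 0.00167). Racgap1 and Kif23, whose products form the centralspindlin complex with each other, had log2 fold changes of -2.16 and -2.11. Prc1, for the protein that bundles central spindle microtubules, and Anln, for the furrow protein anillin, had -2.15 and -1.92.

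In anaphase entry, 3 of 4 genes fell. Ube2c, for the ubiquitin-conjugating enzyme of the APC/C, was the member with the highest control level, at 71, 48.5 and 26.9 FPKM. It was at 13.7, 2.92, 7.24 and 8.1 FPKM in the others (log2 fold change -2.51, SE 0.46; limma, adjusted p = 0.00473). Cdc20, the activator of the APC/C, and Espl1, for separase, which cuts cohesin, had log2 fold changes of -2.36 and -1.78. Pttg1, for securin, the inhibitor of separase (chromosome 11, 43420250 to 43426251, GRCm38), was at 13.2, 11.4 and 8.3 FPKM in controls and at 15.3, 14, 8.81 and 7.91 FPKM in libraries labelled Foxl2LsL 1 to 4. The groups overlapped (0.03, SE 0.25; limma, adjusted p = 0.924; two-sided exact permutation p = 0.857), and the sign turned without control 4 (-0.14) and without library labelled Foxl2LsL 1 (-0.11) or 2 (-0.07).

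All 5 chromosome structure genes fell, by unequal amounts. Top2a, for topoisomerase II alpha, which untangles sister chromatids (chromosome 11, 98992943 to 99024189, GRCm38), was at 56.6, 49.7 and 22.9 FPKM in controls and at 9.23, 2.9, 6.28 and 5.83 FPKM in the others. Its log2 fold change of -2.63 (SE 0.39; limma, adjusted p = 0.00198) was the largest fall of the 46 on the log2(FPKM + 1) scale, while by ratio of means Top2a (7.11) came after Ccnb1 (8.49), Bub1 (8.44) and Kif4 (8.3), among others. The condensin I genes Ncapg and Ncapd2 had -1.93 and -1.77. Smc2, for a subunit that all condensins share, was at 12.9, 12.1 and 7.28 FPKM and at 5.97, 4.5, 4.38 and 4.9 FPKM (-0.96, SE 0.19; limma, adjusted p = 0.00608). Smc2 had the smallest fall of the 43 on this scale, with a control mean 2.18 times that of the other group, and its partner Smc4 had -1.04.

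Mki67, for the proliferation marker Ki-67, which coats mitotic chromosomes (chromosome 7, 135689784 to 135716361, GRCm38), was at 19.8, 19 and 9.87 FPKM in controls and at 3.29, 1.19, 2.43 and 2.33 FPKM in the others. The lowest control was 3.0 times the highest of the other group (log2 fold change -2.36, SE 0.29; limma, adjusted p = 0.00103). Foxm1, for a forkhead factor that activates late cell cycle genes, was at 14.3, 10.5 and 6.2 FPKM in controls and at 2.0, 1.08, 1.57 and 1.66 FPKM in the others (-2.08, SE 0.25; limma, adjusted p = 0.000948). Both genes were without overlap between the groups.

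**Figure D4:**
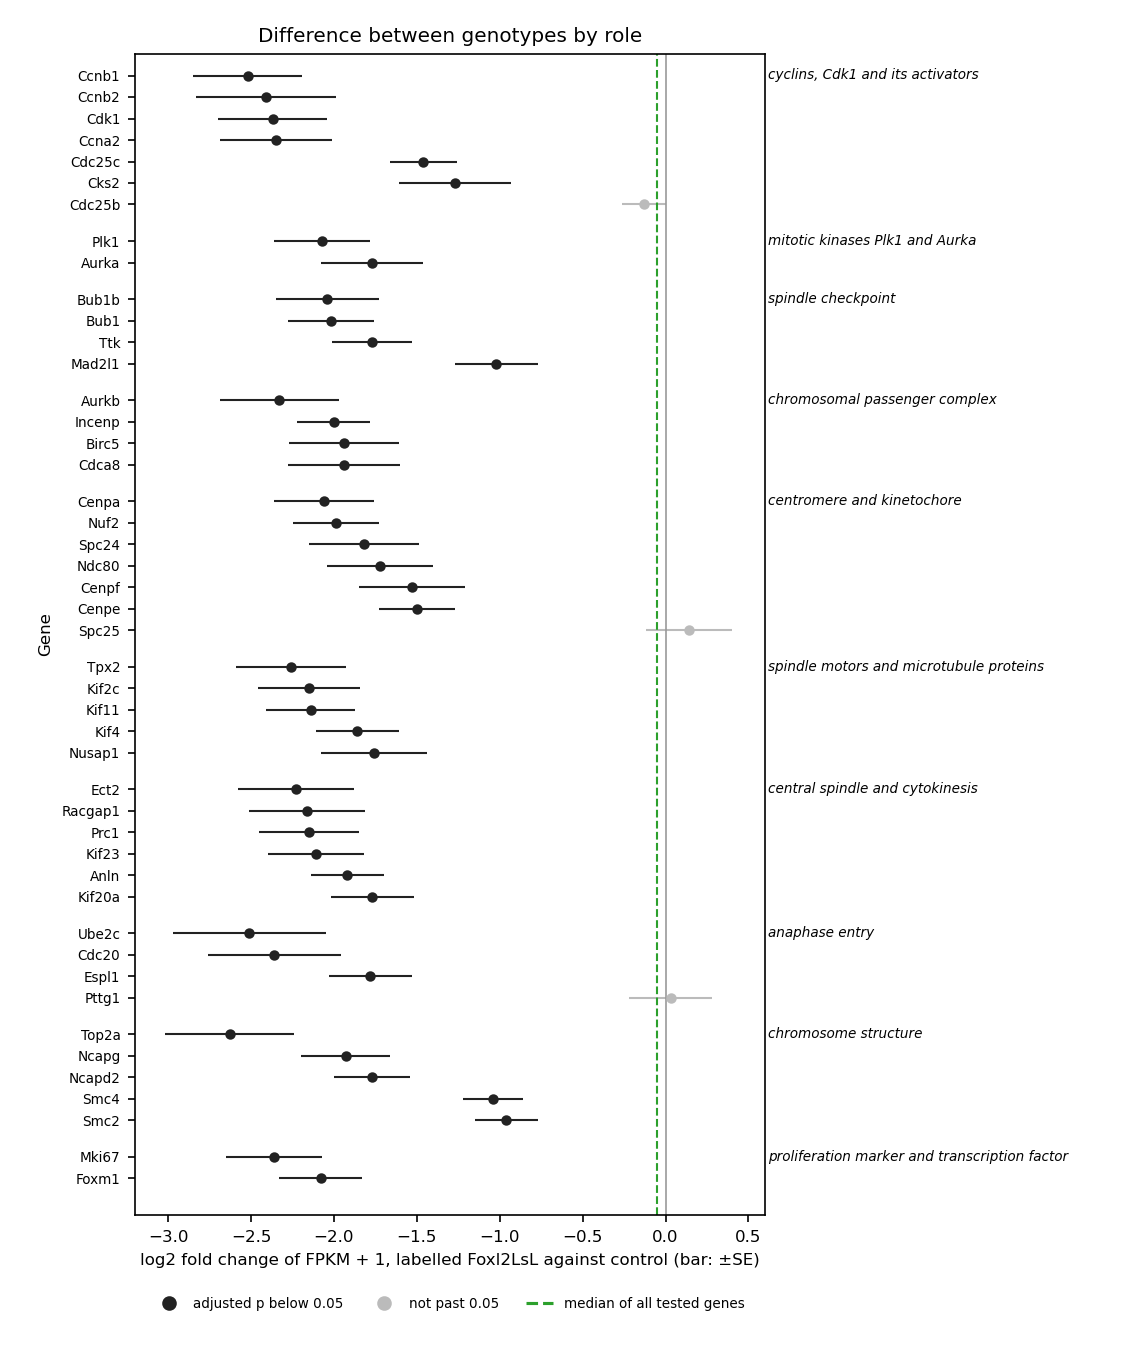
Log2 fold change of FPKM + 1 with its SE (limma) for each mitosis gene, libraries labelled Foxl2LsL against controls, grouped by role; black marks passed an adjusted p of 0.05 and grey marks did not, and the dashed line is the median of all tested genes (-0.05). The 43 black marks lie between -2.63 and -0.96, and Cdc25b, Spc25 and Pttg1 lie near 0.

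The members' order within each group was nearly the same from gene to gene. Control 4 was the lowest control for 46 of 46 members, and control 1 the highest for 44. Library labelled Foxl2LsL 1 was the highest of its group for 46 of 46 members, and library labelled Foxl2LsL 2 the lowest for 41. Control 1 was 2.38 times control 4 at the median member, and library labelled Foxl2LsL 1 was 2.59 times library labelled Foxl2LsL 2. Control 4 was still 2.33 times library labelled Foxl2LsL 1, the nearest libraries of the opposite groups. Without control 4 all 43 falls were called, with a median log2 fold change of -2.27 for the members, and without library labelled Foxl2LsL 2 also all 43, with -1.83.

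Beyond the members, 129 further or upstream cell cycle genes were listed by role, Foxm1 among them as a member too. Of these, 126 were tested, 82 were lower, 3 were higher and 41 did not pass (limma, adjusted p), against 23.9% lower and 16.7% higher of all tested genes. The median log2 fold change was -0.65. Of the lists nearest to the members in function, lower were 21 of 23 other spindle and centrosome genes (median -1.75) and 24 of 27 other tested kinetochore genes (median -0.84). Cep55, for an abscission protein, fell by 2.17 on the log2 scale, Kifc1, for a spindle kinesin, by 2.07, and Spag5, for a spindle-binding protein, by 2.02. Among these other kinetochore genes Ska3 (-1.72), Kntc1 (-1.57) and Cenpi (-1.55) had the largest falls on the log2(FPKM + 1) scale. By ratio of means, control over the other group, their order was reversed: Cenpi (7.92), Kntc1 (6.43) and Ska3 (6.24). Cenpu and Knl1 were below the level tested.

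The list of cohesin and other condensin genes and that of APC/C genes were less uniform. Of 16 cohesin and other condensin genes, 8 fell and 1 rose (median -0.25). The largest falls were Ncaph of condensin I (-2.02), Sgo2a, for a protein of the shugoshin family (-1.76), and Cdca5, for sororin (-1.76). Of 16 APC/C genes, 7 fell (median -0.24). The largest falls there were Fbxo5, for the APC/C inhibitor EMI1 (-1.06), Ube2s, for a ubiquitin-conjugating enzyme of the complex (-1.01), and Anapc15 (-0.68). Differences between the lists were not tested.

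Among 23 genes of the MuvB, E2F, pocket protein and NF-Y regulators, 12 fell and 0 rose. Mybl2, for B-MYB, was at 6.02, 4.02 and 2.47 FPKM in controls and at 0.89, 0.763, 0.794 and 0.869 FPKM in the others (log2 fold change -1.44, SE 0.21; limma, adjusted p = 0.00205). E2f1, for an activator of S phase genes, had a mean of 6.4 ± 2.2 FPKM (SD, n = 3) in controls and 1.3 ± 0.289 FPKM (SD, n = 4) in the others (-1.65; limma, adjusted p = 0.00107). E2f8, for a repressor that is itself made late in the cycle, had -1.98. Of the MuvB subunits that bind the CHR or hold the complex together, Lin54 was at 3.43 ± 0.891 and 2.19 ± 0.142 FPKM (-0.45; limma, adjusted p = 0.0387). Lin9 was at 3.57 ± 0.689 and 2.69 ± 0.35 FPKM (-0.30; limma, adjusted p = 0.0966). Rb1, the retinoblastoma gene, was at 4.19 ± 0.743 and 3.69 ± 0.208 FPKM, with overlap (-0.14; limma, adjusted p = 0.339).

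Of 12 G1 cyclins and kinases, 5 fell and 2 rose. Ccne1, for cyclin E1, which drives entry into S phase, was at 9.35, 6.84 and 5.14 FPKM in controls and at 0.96, 0.503, 0.566 and 0.934 FPKM in the others (log2 fold change -2.20, SE 0.19; limma, adjusted p = 0.000319). Cdc25a, for a phosphatase that activates CDKs from G1 on, had -0.95. Ccnd2, for cyclin D2, rose: it was at 5.09, 7.42 and 7.75 FPKM in controls and at 11.1, 21.9, 17.6 and 13.4 FPKM in the others (1.11, SE 0.23; limma, adjusted p = 0.00766). Both groups of Ccnd2 values were apart, in the opposite direction to Ccne1.

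The CDK inhibitors and Cdk1 inhibitory kinases held 9 tested genes, of which 5 fell and 0 rose. Cdkn1a, for p21, was at 7.77 ± 4.05 FPKM (SD, n = 3) in controls and 6.85 ± 2.36 FPKM (SD, n = 4) in the others, with overlap (limma, adjusted p = 0.868). Cdkn1b, for p27, was at 27.2 ± 2.75 and 33.5 ± 4.24 FPKM and did not pass (0.29; limma, adjusted p = 0.075). Cdkn1c, for p57, fell from 20 ± 3.72 to 8.7 ± 2.13 FPKM (-1.12; limma, adjusted p = 0.00319). Wee1, for a kinase that keeps CDK1 inactive, fell by 1.23 on the log2 scale, and Cdkn3, for a phosphatase of CDKs whose transcript peaks in mitosis, by 1.60.

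**Figure D5:**
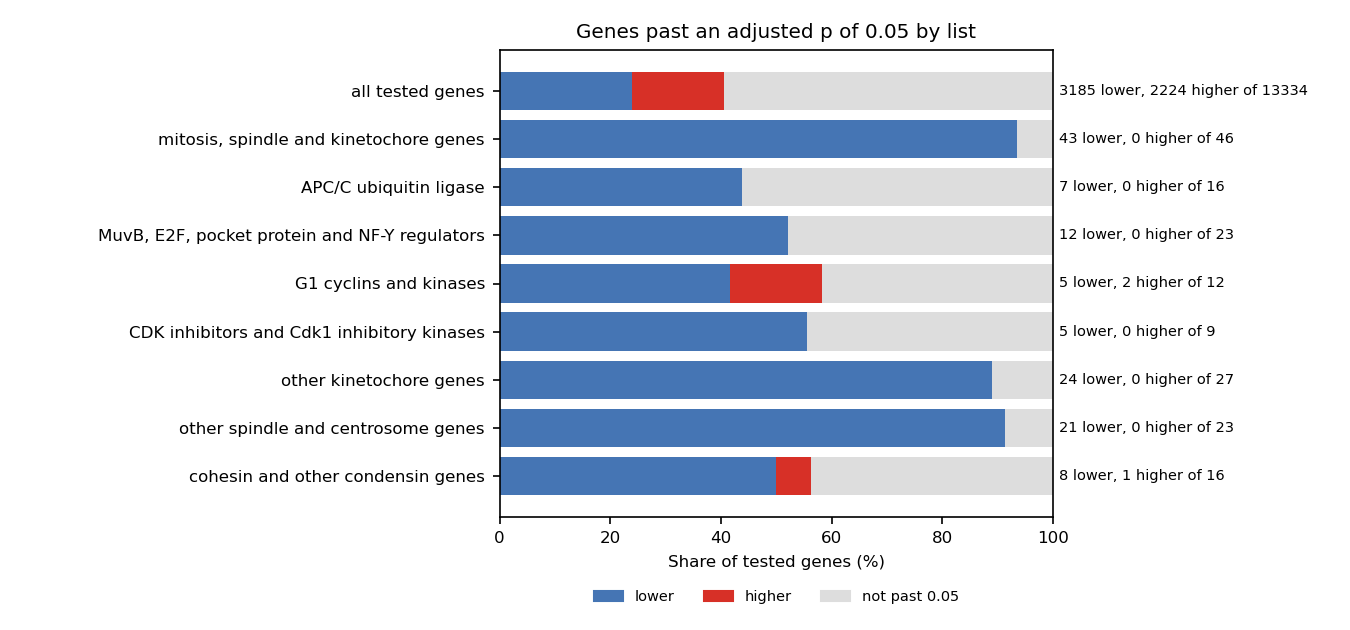
Share of tested genes (%) that were lower (blue), higher (red) or not past an adjusted p of 0.05 (grey; limma) in libraries labelled Foxl2LsL, for all 13334 tested genes, the 46 mitosis genes and 7 lists of related cell cycle genes. Counts stand beside each bar; the mitosis genes show 43 lower and 0 higher, and all tested genes 3185 lower and 2224 higher.

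Some markers of uterine compartments also differed between the groups, to be read against the 40.6% of all tested genes that passed in either direction. With both directions pooled, simple epithelium, smooth muscle, leukocytes and adipose tissue had no larger share of called markers than genes at large. Gland, stroma and endothelium had a larger one. By direction, 16.7% of all tested genes were higher and 23.9% lower. All calls in simple epithelium, smooth muscle, leukocytes and adipose tissue were higher, and each of these lists exceeded the share of genes at large that were higher. The lists are small, and these shares were not tested. Simple epithelium had 4 of 12 markers higher and 0 lower, among them Elf3 (log2 fold change 1.95) and Ehf (1.0), and its summed level was 871.9 to 1602 FPKM in controls and 1329 to 2002 FPKM in the others, with overlap. Uterine gland markers had 3 of 4 tested genes lower, among them Cxcl15 (-2.45) and Foxa2 (-1.5), and sums of 66.7 to 99.8 and 20.4 to 24.9 FPKM. Endometrial stroma had 7 of 12 lower and 1 higher, with Hand2 (-2.18) and Thy1 (-1.96) as the largest falls, and sums of 1362 to 2515 and 1772 to 2017 FPKM. The stroma marker that rose was Dcn, from a mean of 411.4 to 977.7 FPKM (1.25; limma, adjusted p = 0.000307). Hand2 is also counted among the progesterone response genes below. Smooth muscle had 4 of 10 higher, among them Kcnmb1 (1.17) and Myh11 (1.01), and sums of 922.8 to 1774 and 1609 to 2045 FPKM. Endothelium had 7 of 10 lower and 2 higher, Cdh5 (-1.17) and Cldn5 (0.82) among them, and sums of 208.9 to 261.2 and 158.1 to 184 FPKM. Leukocytes had 2 of 8 tested markers higher, Itgam (1.60) and Csf1r (0.64), and sums of 120.4 to 193.4 and 194.5 to 249.9 FPKM. Itgam was uneven, at 12.2, 2.93, 4.21 and 18 FPKM in libraries labelled Foxl2LsL 1 to 4, and did not pass with limma-voom (adjusted p = 0.0674). The part of these differences in the fall of the mitosis genes was not tested.

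Of 8 ovary markers only Inha reached the level tested, and its call did not pass. Amh, Gdf9 and Nr5a1 were at 0.606 FPKM or less in every library, and Fshr, Zp3, Cyp19a1 and Lhcgr at 0.137 FPKM or less. Inha was highest in library labelled Foxl2LsL 1 (9.22 FPKM), as were Nr5a1, Fshr, Cyp19a1 and Lhcgr at their low levels, but not Amh, Gdf9 and Zp3. Of 5 tested adipose markers, Pnpla2 alone was higher (0.69), and the sums were uneven within both groups: 17.2, 17.9 and 63.1 FPKM in controls 1, 2 and 4 and 22.6, 93.1, 158.6 and 32.4 FPKM in libraries labelled Foxl2LsL 1 to 4. Without the 3 libraries highest in adipose markers, an alternative chosen after seeing the data, all 43 falls were called among the 46 members, with a median log2 fold change of -2.11.

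Steroid response genes moved with the groups as well. Of 8 estrogen response genes 6 were higher and 0 lower, Padi1 (3.30) and Padi2 (3.05) most, and their summed level was 450.3, 461.4 and 195 FPKM in controls 1, 2 and 4 and 2627, 1089, 1620 and 2607 FPKM in libraries labelled Foxl2LsL 1 to 4. Of 7 tested progesterone response genes 4 were lower and 0 higher, Ihh (-2.53) and Acod1 (-2.28) most, with sums of 84.8, 99 and 184.7 FPKM in controls and 44.7, 51.1, 47.2 and 48.5 FPKM in the others. Control 4, lowest of the controls in every mitosis gene, had the lowest estrogen response and the highest progesterone response sum of the controls. Library labelled Foxl2LsL 2, lowest of its group in 41 mitosis genes, had the lowest estrogen response sum of its group. Not every estrogen response gene had this order. Igf1 was highest in control 4 (45.5 FPKM), and Greb1 was highest in library labelled Foxl2LsL 2 (17.7 FPKM). Between the groups, the estrogen response sums rose while the mitosis gene sums fell. The simple epithelium sum was lowest in the same library of each group. It was 1602, 1114 and 871.9 FPKM in controls 1, 2 and 4. In libraries labelled Foxl2LsL 1 to 4 it was 2002, 1329, 1774 and 1873 FPKM. The part of any of these lists in the members' levels was not tested.

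The 46 genes lie on 16 chromosomes. In GENCODE M21 (GRCm38), 31 members share no exon base with another gene and 15 do, 7 of them over more than 10% of their exon bases, at most 29.3% for Kif20a, with Cdc23. The use of strand in the counting is not stated, so reads in these overlaps cannot be assigned, and the same holds for reads shared with near-identical copies. Spc25 and Pttg1 share no exon base with another gene there, and Cdc25b shares 2.5%, with Spef1.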

How the data were processed

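RNA-seq of whole mouse uterus was deposited by the authors as 1 table of FPKM per gene and library with gene lengths. The submitters' processing notes name STAR 2.5.2b, featureCounts 1.5.0-p1 and the mm10 build, with no role given. The deposited FPKM values held whole fragments: every low value (gene length up to 1500 bases, up to 20 fragments) was a whole multiple of 1 step per library within 0.1, and the steps gave the depths. Depth limits the precision of low genes, and no interval was computed.

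Log2(FPKM + 1) was tested with limma 3.58.1 (R 4.3.3, intensity trend) over all 7 libraries, for genes with a mean of at least 1 FPKM, with Benjamini-Hochberg adjustment over 13334 genes and a threshold of 0.05. The fit was tested on simulated data. Exact permutation tests used the 35 splits. Tables and promoters were handled in Python 3.11.15.

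The members and lists were chosen with earlier results of these data known. Values per library are given for 6 central members, the largest and smallest change of each role group, and members not past the threshold. Related lists have up to 3 genes past the threshold named, by size of change, plus the regulators Foxm1, Mybl2, E2f1, Lin9, Lin54, Rb1, Cdkn1a, Cdkn1b and Cdkn1c, and marker lists up to 2. Alternatives were other filters, pseudocounts, scalings, limma-voom on recovered fragments, a replicate block and leaving out libraries. Replicate numbers were not used as pairs in the main fit.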

Additional observations from a re-analysis of the deposited data

How the results depend on the processing

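The direction of each of the 43 falls was the same in each of the 17 settings in which that gene was tested, 1 of them added after seeing the data. The count of members lower was 43 in each, except 32 of 35 tested at a mean of at least 5 FPKM, and 41 to 43 when 1 library was left out. Left out in turn, libraries whose absence cost calls were control 1 and library labelled Foxl2LsL 3 (Cks2) and control 2 (Cks2 and Mad2l1). Leaving out 1 library gave medians from -2.27 to -1.75 for the members and 3853 to 5328 genes past the threshold. At a mean of at least 5 FPKM, 43 related cell cycle genes passed, in place of 85, with fewer genes tested. With limma-voom the members' median was -2.46, on a scale without the pseudocount of 1. Of all genes past the threshold, 41.1% were higher, against 49.2% with quantile normalization and 50.4% with median centring, so the excess of lower calls over all genes depends on the scaling. The log2 fold changes that changed sign were all of genes that passed in no such setting. Cdc25b was at 0.04 without control 1. Leaving out 1 library put Spc25 between -0.15 (without control 4) and 0.32 (without control 1), and it was at -0.24 without the 3 libraries highest in adipose markers. Pttg1 ranged from -0.14 (without control 4) to 0.18 (without library labelled Foxl2LsL 4), with -0.11 and -0.07 without library labelled Foxl2LsL 1 or 2, and was at -0.14 without the 3 adipose-high libraries. Cdkn1a was at 0.06 with the replicate block, ranged from -0.51 (without control 4) to 0.23 (without control 1), and was at 0.01, 0.02 and 0.06 without control 2, library labelled Foxl2LsL 2 or 3. For all of these the cause was not tested.

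A replicate block could be fitted to replicates 1, 2 and 4 of both groups. It left 3243 genes past the threshold, against 3975 in the same libraries without the block and 5409 in all 7 libraries. With the block the members lower were 43 and their median was -1.98. Without it, in the same libraries, they were 42 and -1.98. Over all tested genes, same-numbered libraries deviated together weakly or not at all (correlations of 0.228, -0.0306 and -0.112 for replicates 1, 2 and 4). Among the members, replicate 1 was the highest control for 44 of 46 and the highest library labelled Foxl2LsL for 46 of 46. Whether the numbers mark pairs is not known from the labels, and the main fit does not use them as pairs.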
